A study of Mus musculus with 6 samples.

Results

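Integrin and laminin genes were followed in oesophageal epithelial cells of mice with and without ibuprofen. They were taken as the rows of the deposited table whose symbol names an integrin alpha chain, a numbered integrin beta chain or a laminin alpha, beta or gamma chain. The rule found 38 of 52636 rows, 27 for integrins and 11 for laminins, with Itgam present under 2 gene IDs. The cells were sorted for high EpCAM, an epithelial surface protein, from the thoracic part of the oesophagus, and RNA was sequenced in bulk. The ibuprofen group held 3 libraries from mice that drank 0.6 g per l of the drug, a cyclooxygenase inhibitor, and the untreated group held 3 libraries. Both groups carried Krt5-CreERT2:R26SmoM2/EYFP and were studied 12 weeks after tamoxifen, so the untreated group is no wild type. In this model tamoxifen activates a Cre under the keratin 5 promoter, and cells that express it begin to make SmoM2, a Smoothened variant that signals in the Hedgehog pathway without ligand. Mouse age, and whether each library came from 1 animal or a pool, are not given in the labels.

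Integrins are surface receptors made of 1 alpha and 1 beta chain, and laminins are basement membrane proteins made of 1 alpha, 1 beta and 1 gamma chain. In stratified epithelia such as the oesophagus, the basal cells sit on a basement membrane rich in laminin-332 and laminin-511. The integrin of Itga6 and Itgb4 binds laminin-332 and anchors hemidesmosomes, which join the membrane to keratin filaments. The integrin of Itga3 and Itgb1 binds the same laminins at focal contacts.

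Integrin beta chains share a metal-binding site, the metal-ion-dependent adhesion site, in the head of the protein where ligand is held. The bases around it are shown for 4 beta chain genes that the results turn on, because how much each library deviated from the mean followed base composition and these genes differ in it. Each line gives 63 coding bases 5′ to 3′ from GENCODE M21 transcripts on GRCm38, on the gene's strand, and capitals mark the 15 bases that code for the aspartate and the pair of serines of the site with the residues between them.
Itgb8, chr12:119192218-119192280, minus strand, exon 4: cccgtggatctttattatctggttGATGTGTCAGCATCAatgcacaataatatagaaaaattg
Itgb7, chr15:102224363-102224425, minus strand, exon 4: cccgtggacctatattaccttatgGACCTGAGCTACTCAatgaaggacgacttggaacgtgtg
Itgb1, chr8:128713255-128713317, plus strand, exon 5: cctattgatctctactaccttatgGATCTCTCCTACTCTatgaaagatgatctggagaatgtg
Itgb4, chr11:115979734-115979796, plus strand, exon 4: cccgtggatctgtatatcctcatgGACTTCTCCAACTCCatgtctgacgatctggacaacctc
The GC content of the window was 34.9% in Itgb8, 49.2% in Itgb7, 39.7% in Itgb1 and 50.8% in Itgb4. Over the whole coding sequence it was 45.6%, 58.1%, 42.6% and 59.4% in the same order.

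Values are CPM, the share of a library's gene reads that fall on a gene, scaled so that every library has the same total. The steps in the values gave an estimated 6361295 to 8764367 reads assigned to genes per library. An expected 3 reads, the limit that a value of 0 allows, came to 0.342 to 0.472 CPM. Libraries differed in how expression followed the GC content of transcripts. Each library was set against the 6-library mean over 16646 genes, and Spearman's rho of that difference with GC content was -0.26, -0.33 and -0.10 in ibuprofen replicates 1, 2 and 3. It was 0.48, 0.20 and -0.30 in untreated replicates 1, 2 and 3, so untreated replicate 3 lay on the side of the ibuprofen libraries. Epcam itself had 233 to 273 CPM with ibuprofen and 232 to 279 CPM untreated. Markers of basal epithelium were abundant, with summed levels of 7183 to 7832 CPM with ibuprofen and 8405 to 10099 CPM untreated. Of 7 leukocyte markers, 2 were high enough to be tested, Cd68 and Csf1r. The defining one, Ptprc, stayed at or below 0.15 CPM with ibuprofen and 0.25 CPM untreated, and Cd207 was at 0 in all 6 libraries. Fibroblast markers summed to 65.9 to 146 CPM with ibuprofen, highest in replicate 1, and to 42.9 to 86.1 CPM untreated. In bulk RNA, fewer cells of a type and less RNA per cell cannot be told apart.

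No integrin or laminin gene passed the test between ibuprofen and untreated cells. Of the 38 rows, 24 reached 1 CPM in at least 3 libraries and were tested, 16 integrins and 8 laminins. limma called 0 of these 24 at an adjusted p under 0.05, against 0.521% of 16684 genes tested. At an unadjusted limma p under 0.05 there were 3 members, Itgb8, Lama3 and Itgb7, all with higher values with ibuprofen. Itgb7 reached 1 CPM only in the ibuprofen libraries, so it was tested because of the group where it was high. Over all genes tested, 17.9% passed that looser threshold, 11.8% with higher and 6.17% with lower values with ibuprofen. The groups did not overlap in 4 members, the same 3 and Itgb4, against 22.9% of all genes tested. Ibuprofen was the higher group in 3 of them, against 14.2% of all genes, and the lower group in Itgb4, against 8.73% of all genes. The median log2 fold change was 0.08 over the 24 members and 0.04 over all genes tested, and 15 members were above 0, against 56.3% of all genes. Summed over the 27 integrin rows, expression was 3097 ± 97.5 CPM with ibuprofen and 3063 ± 53.4 CPM untreated (SD, n = 3 each).

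**Figure D1:**
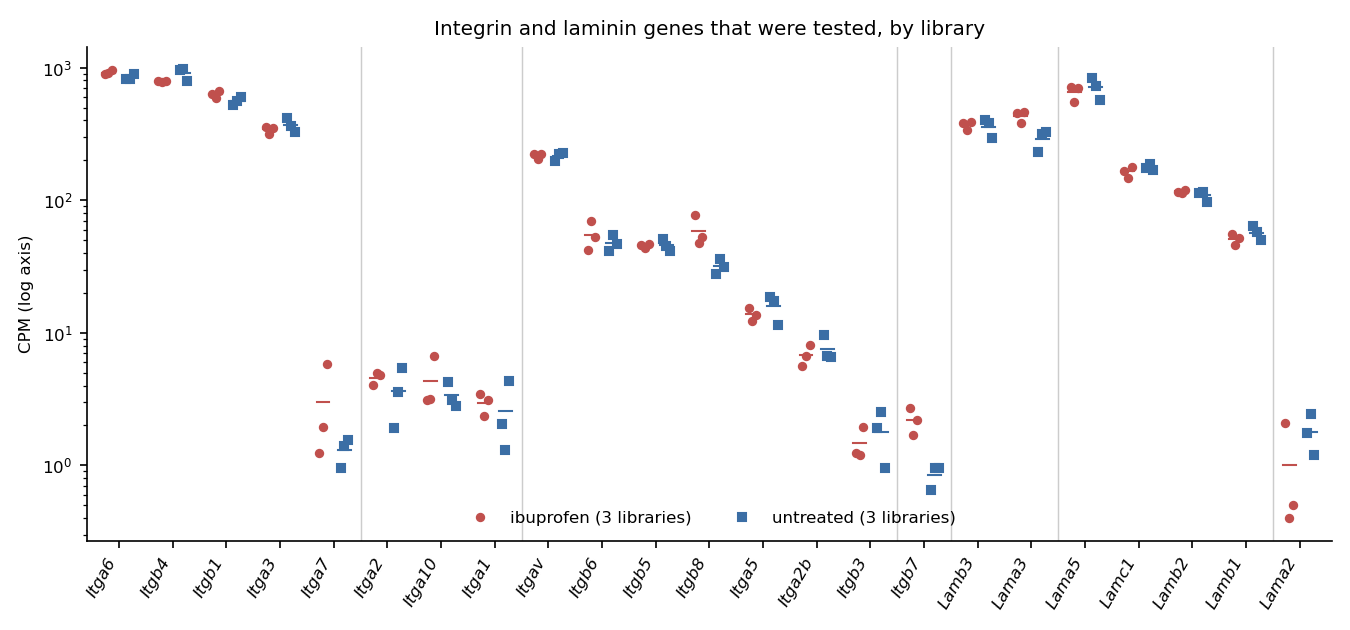
CPM on a log axis of 23 tested integrin and laminin genes in each library, with ibuprofen (red circles) left of untreated (blue squares), short lines at the group means and grey lines between roles. Epithelial chains such as Itga6, Itgb4 and Lama5 lie at the top, and the groups are apart in Itgb8, Itgb7, Lama3 and Itgb4.

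Per kb of exon, 4 chains of laminin receptors were the most abundant integrins in both groups, and none of them passed the test. Itga6, the alpha chain of the hemidesmosome integrin, had 894, 909 and 953 CPM in ibuprofen replicates 1, 2 and 3, against 825, 814 and 897 CPM in untreated replicates 1, 2 and 3. Itgb4, its beta chain, had 794, 773 and 787 CPM in the ibuprofen libraries, against 959, 969 and 796 CPM in the untreated libraries. All ibuprofen libraries lay below all untreated libraries in Itgb4, though untreated replicate 3 was close to them. The log2 fold change was 0.12 ± 0.10 for Itga6 and -0.21 ± 0.11 for Itgb4 (SE, limma adjusted p = 0.542 and 0.348). Itgb1, a beta chain that pairs with many alpha chains, had 634, 593 and 666 CPM with ibuprofen and 521, 558 and 600.2 CPM untreated. Its groups overlapped, and its log2 fold change of 0.17 ± 0.10 had a 95% interval of -0.05 to 0.40. Itga3, the focal contact partner of Itgb1, had 357, 316 and 353 CPM with ibuprofen and 416, 365 and 327 CPM untreated, with a log2 fold change of -0.11 ± 0.11. The muscle-type laminin receptor chain Itga7 was low, at 1.25, 1.95 and 5.85 CPM with ibuprofen and 0.949 to 1.55 CPM untreated, so its ibuprofen mean rests on replicate 3. After GC correction the log2 fold change was 0.03 for Itga6, -0.11 for Itgb4, 0.045 for Itgb1 and -0.03 for Itga3. Without untreated replicate 1 it was -0.02 for Itga3, and without untreated replicate 3 it was -0.19. These receptors are basal cell proteins, and the summed basal markers were lower with ibuprofen, a sum that 3 keratin genes carried. Of those markers the smallest p was that of the keratin gene Krt15, with 934, 930.0 and 1042 CPM with ibuprofen and 1762, 1493 and 1301 CPM untreated (log2 fold change -0.64 ± 0.13, limma adjusted p = 0.0615). The keratin genes Krt14 and Krt5 had log2 fold changes of -0.54 ± 0.16 and -0.32 ± 0.14 (limma adjusted p = 0.132 and 0.249). The other 3 markers were closer to 0, with -0.05 ± 0.13 for Trp63, a transcription factor of basal cells, 0.07 ± 0.10 for Cdh1 and -0.01 ± 0.11 for Epcam. The part of these marker differences in the integrin values was not tested.

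Per kb of exon, which allows genes to be compared, Itgb1 stood highest of these receptors, at 155 ± 9.05 CPM per kb with ibuprofen and 137 ± 9.7 CPM per kb untreated (SD, n = 3 each). Itgb4 followed with 112 ± 1.52 and 129 ± 13.8 CPM per kb, and Itga6 with 102 ± 3.4 and 93.7 ± 5 CPM per kb, each with ibuprofen and untreated in turn. Itgb1 and Itgb4 lay within their spread of each other in untreated cells. Itga3 was lower, at 59.9 ± 4 CPM per kb with ibuprofen and 64.7 ± 7.79 CPM per kb untreated.

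Collagen receptor chains were low in both groups, and none of the 3 tested passed the test. Itga2, which pairs with Itgb1 as a collagen receptor, had 4.05, 4.95 and 4.8 CPM with ibuprofen, against 1.9, 3.55 and 5.4 CPM untreated. The groups overlapped, and its log2 fold change was 0.35 ± 0.27 (limma adjusted p = 0.512), with 0.05 without untreated replicate 1, 0.62 without untreated replicate 3 and 0.21 after GC correction. Itga10 and Itga1 had means of 4.3 and 2.96 CPM with ibuprofen and 3.38 and 2.56 CPM untreated. Itga11, a collagen receptor of fibroblasts, averaged 0.516 CPM with ibuprofen and 0.45 CPM untreated and was not tested.

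Among the receptors that bind RGD-type ligands such as fibronectin and latent TGF-beta, Itgb8 stood apart from the others. Itgb8 (ENSMUSG00000025321, chromosome 12, 119158022 to 119238802, GRCm38) encodes the beta chain that pairs with Itgav and activates latent TGF-beta. It had 76.8, 47.9 and 52.4 CPM in ibuprofen replicates 1, 2 and 3, against 27.7, 35.9 and 31.6 CPM in untreated replicates 1, 2 and 3. All ibuprofen libraries lay above all untreated libraries, and replicate 1 was the highest. The log2 fold change was 0.85 ± 0.17, with a 95% interval of 0.47 to 1.23, or 1.81-fold, and the limma adjusted p was 0.0624. By p-value it was gene 118 of the 16684 tested. Without ibuprofen replicate 1, also the library with the highest sum of fibroblast markers, the log2 fold change was 0.65 (limma adjusted p = 0.136). Without ibuprofen replicate 2 it was 0.98 and passed the threshold (limma adjusted p = 0.0482). After correction for GC content it was 0.71 ± 0.16 (limma adjusted p = 0.0873). Over all 17 alternatives it stayed above 0, with limma adjusted p-values of 0.0124 to 0.245. Per kb of exon, Itgb8 stood at 5.34 ± 1.41 CPM per kb with ibuprofen and 2.87 ± 0.373 CPM per kb untreated, below its partner Itgav at 20.3 ± 0.954 and 20.05 ± 1.57 CPM per kb (SD, n = 3 each). Of the fibroblast markers, the most abundant, Dcn, was highest in ibuprofen replicate 2, with 61.6, 88.1 and 54.3 CPM in ibuprofen replicates 1, 2 and 3. The part that fibroblast RNA or GC content has in the difference of Itgb8 was not tested.

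The other RGD-type chains had groups that overlapped. Itgav, the alpha chain that pairs with Itgb8, Itgb6 and Itgb5, had 224, 206 and 223 CPM with ibuprofen and 196, 225 and 226 CPM untreated. Its log2 fold change of 0.02 ± 0.10 had a 95% interval of -0.20 to 0.24, and its sign turned under TMM and median-ratio scaling. Itgb6, an epithelial activator of latent TGF-beta, averaged 54.8 ± 14.2 CPM with ibuprofen and 47.7 ± 6.76 CPM untreated (SD, n = 3 each). Itgb5, a vitronectin receptor chain, averaged 45.7 ± 1.65 CPM with ibuprofen and 45.7 ± 4.57 CPM untreated. Itga5, the fibronectin receptor chain, and the platelet chains Itga2b and Itgb3 had log2 fold changes between -0.17 and -0.13. Itga8 was at 0 in the ibuprofen libraries and at most 0.25 CPM untreated. Itga4 and Itga9, alpha chains that bind other matrix ligands, stayed at or below 0.75 CPM and were not tested.

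Integrins of leukocytes were rare, with 8 rows that summed to 4.4, 4.2 and 8.44 CPM with ibuprofen and 1.5, 1.7 and 2.3 CPM untreated. Itgb7 (ENSMUSG00000001281, chromosome 15, 102215995 to 102231944, GRCm38), the partner of Itga4 and Itgae on lymphocytes, had 2.7, 1.7 and 2.2 CPM with ibuprofen, against 0.65, 0.949 and 0.949 CPM untreated. These values rest on an estimated 22, 13 and 19 reads in the ibuprofen libraries and 4, 8 and 8 reads in the untreated libraries. All ibuprofen libraries lay above all untreated libraries, and the log2 fold change was 0.78 ± 0.22 (limma adjusted p = 0.126). It reached 1 CPM only in the ibuprofen libraries, so the filter let it through because of the group where it was high. Itgae, the alpha chain that pairs with Itgb7 to bind E-cadherin, had 0.75, 1.2 and 1.95 CPM with ibuprofen and 0.35, 0.6 and 0.7 CPM untreated, without overlap, and was too low to be tested. The row of Itgam with the older gene model had 0.25, 0.3 and 1.6 CPM with ibuprofen and was at 0 in the untreated libraries. A second gene model under the symbol Itgam lies over the first in GENCODE, so reads could be split between them. Itgb2, the beta chain of the main leukocyte integrins, was at 0 in all libraries except ibuprofen replicate 2. Its alpha chain partners Itgal, Itgad and Itgax reached at most 1.15, 0.15 and 0.15 CPM with ibuprofen and 0.5, 0.15 and 0 CPM untreated. The 7 leukocyte markers summed to 13.2 to 19.3 CPM with ibuprofen and 8.99 to 13.4 CPM untreated, with Ptprc and Cd207 as given above. Cd68, a marker of macrophages, had 9.44, 8.2 and 8.14 CPM with ibuprofen and 4.45, 4.35 and 6.8 CPM untreated, without overlap (log2 fold change 0.65 ± 0.20, limma adjusted p = 0.147). The macrophage receptor gene Csf1r had groups that overlapped (0.06 ± 0.27). The part of these markers in the values of Itgb7 and Itgae was not tested.

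**Figure D2:**
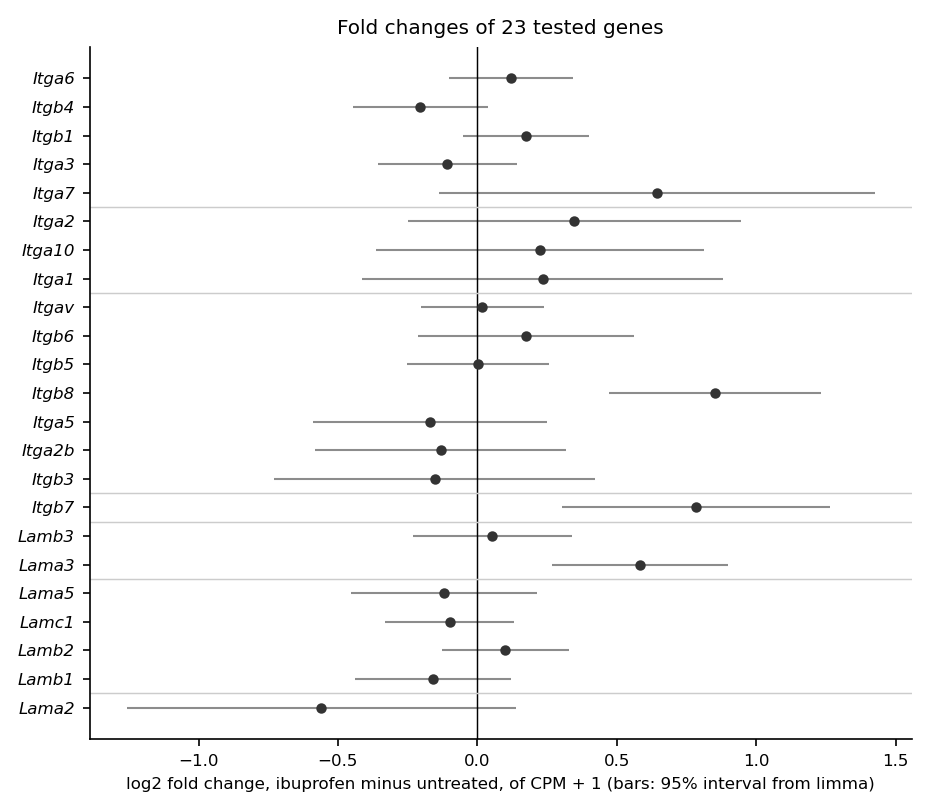
Log2 fold change of 23 tested integrin and laminin genes, ibuprofen minus untreated from log2(CPM + 1), with 95% intervals from limma before adjustment for the number of genes tested, grouped by role. The intervals of Itgb8, Itgb7 and Lama3 lie above 0 and those of the other genes shown cross it.

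Lama3, the alpha chain of laminin-332, the laminin of hemidesmosomes, had the largest positive fold change of the laminin genes but did not pass the test. Lama3 (ENSMUSG00000024421, chromosome 18, 12333819 to 12583013, GRCm38) had 456, 381 and 465 CPM in ibuprofen replicates 1, 2 and 3, against 229, 318 and 329 CPM in untreated replicates 1, 2 and 3. All ibuprofen libraries lay above all untreated libraries, and untreated replicate 1 was the lowest. The log2 fold change was 0.58 ± 0.14, with a 95% interval of 0.27 to 0.90, or 1.5-fold, and the limma adjusted p was 0.102. Without untreated replicate 1, which stood apart in GC content, it was 0.42 (limma adjusted p = 0.253). Without untreated replicate 3 it was 0.68 and passed the threshold (limma adjusted p = 0.0475). After GC correction it was 0.56 ± 0.13 (limma adjusted p = 0.0900). Over all 17 alternatives it stayed above 0, with limma adjusted p-values of 0.0188 to 0.253. Lama3 is overlapped by 4 other gene models, 3 of them on the other strand. Of the 24 tested members 13 have an overlapping gene model, and Lamb3 has 6, with 4 on the other strand. Whether the counting used strand is not given, so reads from them cannot be told apart.

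Lamb3, the beta chain that joins Lama3 in laminin-332, had 381, 336 and 391 CPM with ibuprofen and 400.3, 382 and 292 CPM untreated. Its log2 fold change of 0.05 ± 0.13 turned in sign under TMM and median-ratio scaling and without untreated replicate 3. Per kb of exon, Lamb3 stood at 55.8 ± 4.44 and Lama3 at 40.4 ± 4.33 CPM per kb with ibuprofen (SD, n = 3). Untreated cells had the same order, with Lamb3 at 54.2 ± 8.75 and Lama3 at 27.2 ± 5.07 CPM per kb.

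Chains of laminin-511, the other main laminin under basal cells, and of laminin-521 had overlapping groups throughout. Lama5, the alpha chain of both, had 708, 552 and 701 CPM with ibuprofen and 842, 732 and 571 CPM untreated. Its log2 fold change was -0.12 ± 0.15. That value came to 0.0068 without untreated replicate 1, -0.27 without untreated replicate 3 and -0.03 after GC correction. Lamc1, the gamma chain shared by most laminins, averaged 165 ± 15.8 CPM with ibuprofen and 176 ± 9.56 CPM untreated. Lamb2 is the beta chain of laminin-521 and Lamb1 that of laminin-511. Lamb2 and Lamb1 averaged 116 ± 2.68 and 50.9 ± 5.01 CPM with ibuprofen, against 109 ± 9.83 and 57.0 ± 6.94 CPM untreated. Lama2, the main alpha chain of muscle and Schwann cell laminin, had 2.1, 0.4 and 0.5 CPM with ibuprofen and 1.75, 2.45 and 1.2 CPM untreated. The ibuprofen values of Lama2 rest on an estimated 17, 3 and 4 reads. Its log2 fold change was -0.56 ± 0.32 (limma adjusted p = 0.371), with -0.93 without ibuprofen replicate 1 and -0.35 without ibuprofen replicate 2. Without ibuprofen replicate 1, only untreated libraries reached 1 CPM, so the filter let Lama2 through because of the group where it was high. The 6 muscle markers summed to 9.24 to 11.4 CPM with ibuprofen and 10.3 to 17.1 CPM untreated. Of these, Acta1, Ckm and Des were lower in all ibuprofen than in all untreated libraries. The log2 fold changes were -1.23 ± 0.31 for Acta1 and -0.60 ± 0.24 for Ckm (limma adjusted p = 0.104 and 0.232). Both reached 1 CPM only in the untreated libraries, so the filter let them through because of the group where they were high. Des was too low to be tested. The groups overlapped in Tagln, the most abundant of these markers (0.08 ± 0.17), in Acta2 (-0.005 ± 0.22) and in Myh11, which was not tested. The part of these markers in the values of Lama2 was not tested. Lama4, Lamc3 and Lama1, chains of vessel, nerve and embryonic laminins, were at most 0.799 CPM in any library and were not tested.

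Ratios of chains that pair in 1 protein, and of alternative alpha chains, were compared within libraries, per kb of exon. Lama3 pairs with Lamb3 and Itga6 with Itgb4, while Lama5 and Lama3, like Itga3 and Itga6, are alternatives in different proteins. The ratio of Lama3 to Lamb3 was 0.738, 0.697 and 0.732 in ibuprofen replicates 1, 2 and 3, against 0.352, 0.511 and 0.692 in untreated replicates 1, 2 and 3. The groups did not overlap, and the exact two-sided permutation p was 0.1, the smallest that 3 against 3 allows (0.25 adjusted over the 5 ratios computed). Lama5 to Lama3 was 1.47, 1.37 and 1.42 with ibuprofen, against 3.46, 2.17 and 1.64 untreated, also without overlap (exact p = 0.1, adjusted 0.25). The spread was wider among the untreated libraries in both ratios. Both ratios contain Lama3, so they are not separate results. Without untreated replicate 1, the log2 difference went from 0.53 to 0.28 for Lama3 to Lamb3, and from -0.71 to -0.41 for Lama5 to Lama3. Itga6 to Itgb4 was 0.876, 0.914 and 0.942 with ibuprofen and 0.669, 0.653 and 0.876 untreated, and the groups met at untreated replicate 3 (exact p = 0.2, adjusted 0.3). Itga3 to Itga6 averaged 0.588 ± 0.0409 with ibuprofen and 0.694 ± 0.111 untreated (SD, n = 3 each, exact p = 0.3, adjusted 0.3).

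**Figure D3:**
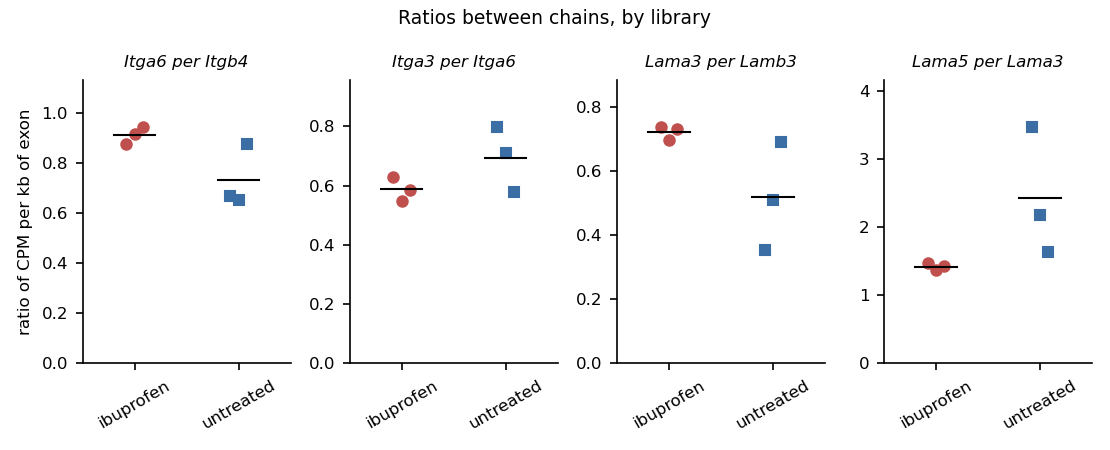
Ratios between partner chains (Itga6 to Itgb4, Lama3 to Lamb3) and between alternative alpha chains (Itga3 to Itga6, Lama5 to Lama3) in each library, from CPM per kb of exon, with ibuprofen (red circles) left of untreated (blue squares) and black lines at the group means. The 3 ibuprofen libraries lie close together in the ratios of Lama3 to Lamb3 and of Lama5 to Lama3, and the untreated libraries are spread more widely on 1 side of them.

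The other genes of the adhesion machinery gave no call either. In 5 lists of hemidesmosome partners, basement membrane proteins, integrin adaptors, RGD-type ligands and laminin-processing enzymes, 58 of 67 genes were tested and limma called 0, against 0.521% of all genes tested. At an unadjusted limma p under 0.05 there were 9 with higher and 5 with lower values with ibuprofen, against 11.8% and 6.17% of all genes tested. The median log2 fold change was 0.05, against 0.04 over all genes.

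Of 6 hemidesmosome partners, the 2 with the smallest p were plakins that tie the hemidesmosome to keratin filaments, and their values went opposite ways. Dst had 3194, 3191 and 3659 CPM with ibuprofen, against 1770.4, 2304 and 2576 CPM untreated (log2 fold change 0.61 ± 0.15, limma adjusted p = 0.102). Plec had 1346, 1427 and 1611 CPM with ibuprofen, against 1926, 1979.8 and 1624 CPM untreated (-0.33 ± 0.12, limma adjusted p = 0.208). Neither gene's groups overlapped, and transcript GC content was 49.3% in Dst and 61.0% in Plec. The hemidesmosome collagen gene Col17a1 had a log2 fold change of 0.05 ± 0.12, with a 95% interval of -0.21 to 0.32.

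Of 18 basement membrane genes 15 were tested, with a median log2 fold change of 0.14. Frem2, a protein of the epithelial basement membrane, had 19.5, 15.3 and 19.1 CPM with ibuprofen and 7.39, 10.8 and 14.0 CPM untreated (0.73 ± 0.21, limma adjusted p = 0.134). Col4a4, a type IV collagen chain, stayed at or below 3.1 CPM (0.44 ± 0.27). Of 24 integrin adaptors 22 were tested, with a median of -0.03. Tns2, a tensin that binds integrin tails, had 14.2, 14.2 and 16.7 CPM with ibuprofen and 26.4, 24.7 and 17.9 CPM untreated (-0.57 ± 0.17, limma adjusted p = 0.136). Parvb, a partner of integrin-linked kinase, had 10.8, 6.25 and 5.15 CPM with ibuprofen and 3.5, 4.6 and 3.3 CPM untreated. Its log2 fold change was 0.76 ± 0.25 (limma adjusted p = 0.164).

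Of the 13 genes listed as RGD-type ligands 11 were tested, with a median log2 fold change of 0.49, against 0.04 over all genes tested. Postn, a matrix protein made by fibroblasts, had 15.2, 4.2 and 5.15 CPM with ibuprofen and 1.15, 1.3 and 2.8 CPM untreated (1.59 ± 0.39, limma adjusted p = 0.0976). Its highest library, ibuprofen replicate 1, was also the highest in the sum of fibroblast markers. Col1a1 had 29.0 CPM there, against 4.7 and 3.7 CPM in ibuprofen replicates 2 and 3. Dcn, the most abundant of those markers, was highest in replicate 2, with 61.6, 88.1 and 54.3 CPM in ibuprofen replicates 1, 2 and 3. Thbs1, which binds integrins and latent TGF-beta, had 664, 726 and 388 CPM with ibuprofen and 393, 254 and 359 CPM untreated (0.79 ± 0.22, limma adjusted p = 0.128). Without ibuprofen replicate 3, Thbs1 passed the threshold. Of the laminin-processing proteases, Mmp14 and Mmp2 had log2 fold changes of 0.39 ± 0.11 and 0.30 ± 0.10 (limma adjusted p = 0.130 and 0.165), and neither gene's groups overlapped.

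Fold changes within the family went with GC content to a like degree as over all genes. Across the 24 tested members Spearman's rho between log2 fold change and transcript GC content was -0.37, against -0.33 across 16646 genes tested. Across the 58 tested genes of the adhesion lists it was weaker, at -0.24. Genes share their libraries and are not independent replicates, so these values are a description. Itgb8 and Itgb1 had 43.1% and 44.7% GC, and Itgb4 and Lama5 had 59.1% and 59.4%. Itgb7, at 58.1% GC, lay off that line. The members whose levels across the 6 libraries were most like those of Itgb4 were Itga5 (Pearson's r = 0.85), Lamb1 (0.83) and Itga3 (0.78), of 23 compared. The least like was its own partner, Itga6 (r = -0.93). All these values share the same libraries, and GC content was 57.0% in Itga5, 50.9% in Lamb1, 57.2% in Itga3 and 47.2% in Itga6. The part of GC content in these correlations was not tested.

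**Figure D4:**
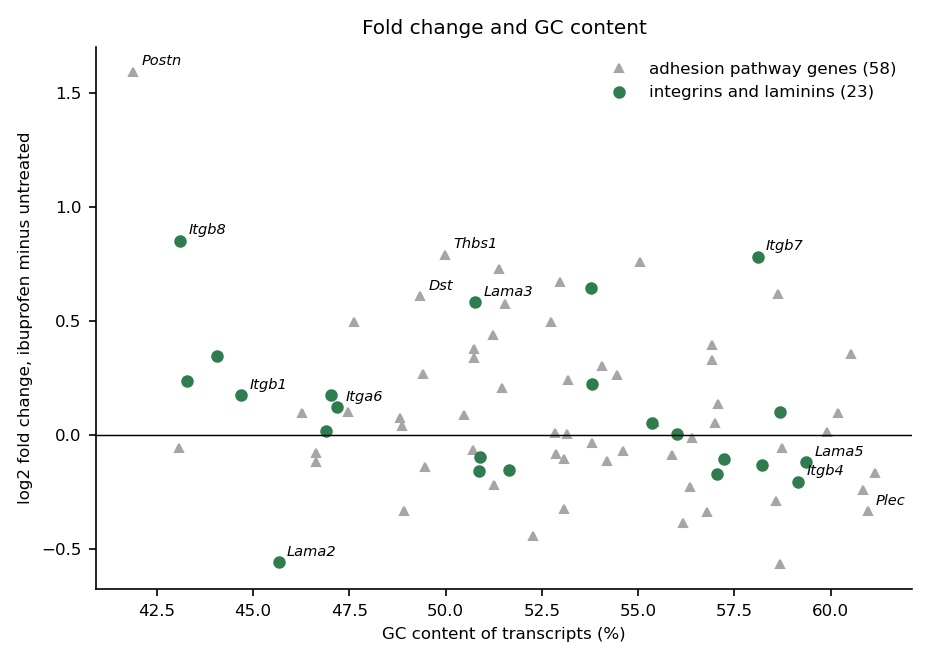
Log2 fold change, ibuprofen minus untreated, against the GC content of transcripts for 23 tested integrin and laminin genes (green circles) and 58 tested genes of the adhesion lists (grey triangles). Itgb8 and Postn lie high at low GC content and Plec and Itgb4 lie below 0 at high GC content. Other genes, among them Itgb7 and Lama2, depart from that slope.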

How the data were processed

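RNA of EpCAM-high oesophageal cells was sequenced in 6 libraries, 3 with ibuprofen and 3 untreated, made with the Ovation Solo kit per the labels' protocols. The deposited values are CPM per the file headers, scaled to each library's gene total. Tools listed without roles are Cell Ranger 3.1.0, edgeR, HTSeq and STAR 2.5.3a, with GRCm38 and mm10 as builds, per the submitters' processing notes. No annotation release, filter or strand setting is given in the sources used here. The CPM sit on steps that whole reads give after scaling and rounding up, and at least 99.82% of values above 0 come back exactly under that assumption. Reads estimated this way were used only for depth, and floors cover counting error only.

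Linear models were fitted to log2(CPM + 1) with limma 3.58.1 (R 4.3.3) for genes with at least 1 CPM in at least 3 libraries, with a mean-variance trend and no block. Calls used a Benjamini-Hochberg adjusted p under 0.05 over all genes tested. The scale understates changes of low genes. Errors are SE for fold changes and SD (n = 3) for CPM. Separate animals are not stated, so the p-values reflect spread between libraries, which may be technical. The library names carry 1 code per group, and a batch behind that code cannot be told apart from treatment. Ratios were tested by exact permutation, two-sided. Lengths, GC content and positions came from GENCODE M21 on GRCm38, and Ccn1 and Ccn2 were found under older symbols through RefSeq. Values of 1 tested gene and of its ratio are not reported here, though counts over the family hold it. Members and lists were chosen with earlier results of these data known. Values by library were given for members with an unadjusted p under 0.05, fixed main chains and the most abundant tested member of each role. The 2 genes with the smallest p of each list were also named, some without values by library. Alternatives covered pseudocount, filter, scaling, library weights, shrinkage, replicate number, GC content and each library left out.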

Additional observations from a re-analysis of the deposited data

How the results depend on the processing

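The count of 0 called integrin and laminin genes held under 13 of 17 alternatives. It was 4 with library weights (Itgb8, Lama3, Itgb7 and Itgb4), 2 with the replicate block (Itgb8 and Lama3), and 0 to 1 with a library left out. The count was 1 without ibuprofen replicate 2 (Itgb8) and 1 without untreated replicate 3 (Lama3). Over all genes tested, 87 were called, 52 with no filter, 2462 with library weights, 434 with the replicate block and 302 with GC correction and the replicate block. With a library left out it was 4 to 456. Of the adhesion lists 0 were called, but 13 with library weights, 2 with the replicate block, 2 with GC correction and the block, and 0 to 4 with a library left out. Same-numbered libraries deviated together weakly at most (r = 0.00, 0.08 and 0.15). Libraries with different numbers had r of -0.14 to 0.097, so the highest value was that of a same-numbered pair. The values were small, and the numbers were not taken as pairs. Itgav, at 0.02, came to -0.052 with TMM and -0.051 with median-ratio scaling, -0.0455 with library weights, -0.079 with GC correction, with or without the block, and -0.049 to 0.057 with a library left out. Lamb3, at 0.05, came to -0.016 with TMM and -0.015 with median-ratio scaling, -0.0495 with library weights, and -0.086 to 0.14 with a library left out. Lama5, at -0.12, came to -0.27 to 0.0068 with a library left out. The cause was not tested. Itgb7 could not be fitted at the filter of 5 CPM or without any 1 ibuprofen library, since fewer than 3 libraries then reached the filter. The planned count-model tests on recovered reads were not run. Depth limits the chains near the floor: 6 members were above 3 expected reads in no library.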

Other observations

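Itgb8 acts on latent TGF-beta, so the 3 TGF-beta genes of the ligand list are given here; they were chosen after their values were seen. Tgfb1, the isoform most cells make, had 38.2, 35.6 and 35.6 CPM with ibuprofen, against 53.4, 53.3 and 38.9 CPM untreated, a log2 fold change of -0.39 ± 0.14 that did not pass (limma adjusted p = 0.193). Tgfb3 had 6.15, 4.7 and 3.7 CPM with ibuprofen, against 2.55, 2.1 and 3.3 CPM untreated (0.67 ± 0.23, limma adjusted p = 0.168). Both had groups without overlap, and in both untreated replicate 3 lay nearest the ibuprofen libraries. Tgfb2 averaged 3.23 CPM with ibuprofen and 2.05 CPM untreated. Ccn1, a matrix protein that binds integrins, had 214, 311 and 299 CPM with ibuprofen, against 177, 187 and 213 CPM untreated (0.49 ± 0.14, limma adjusted p = 0.134), with its lowest ibuprofen and highest untreated libraries almost equal.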
